A study of Mus musculus with 12 samples.

Results

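The E2F and retinoblastoma gene family was examined in the mouse pre-T cell line Beko. It was represented by 9 of the 23366 gene symbols in each deposited table: the E2F transcription factor genes E2f1, E2f2, E2f3, E2f4, E2f7 and E2f8 and the pocket protein genes Rb1, Rbl1 and Rbl2. They were found by symbol, and all 9 passed the filter on low values in all 3 experiments. The E2F genes E2f5 and E2f6 were also measured but are described apart, and they enter none of the shares below. Each experiment had 2 treated and 2 control libraries of ribosomal RNA-depleted total RNA, 12 in all. In the first, cells received 10 µg/ml of DAPT, an inhibitor of γ-secretase, the protease that frees the intracellular domain of Notch, or DMSO, for 24 h. In the second, they received 0.01 µg/ml of apicidin, a histone deacetylase inhibitor, or DMSO, for 24 h. In the third, they carried a plasmid for a short hairpin RNA against Hdac3, labelled as hairpin 1 and the only one used (shHdac3), or for a scrambled hairpin (SCR), and were collected 96 h after puromycin. No other genotype or agent is named for any group. All sample titles name the line Beko, and whether culture conditions were equal between the 3 experiments was not tested. The design text asks which genes respond to loss of Notch signalling and how the deacetylase HDAC3 acts on Notch target genes.

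E2F proteins bind gene promoters as dimers with DP partners and control the entry of cells into S phase. E2F1, E2F2 and E2F3 are known as activators, E2F4 as the main repressor partner of the pocket proteins p107 (Rbl1) and p130 (Rbl2), and E2F7 and E2F8 as repressors that bind DNA without DP and close the S phase program. The pocket proteins hold E2Fs in check until cyclin-dependent kinases phosphorylate them, and pRB (Rb1) recruits histone deacetylases to E2F promoters. Several members, among them E2f1, E2f2, E2f7, E2f8 and Rbl1, are themselves known E2F target genes. In developing thymocytes, E2F activity accompanies the burst of division that follows pre-T cell receptor signalling.

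Reads assigned to genes numbered 21766984 to 42815304 per library. The least counted member was E2f7, with 80 to 487 whole reads per library, and every other member had at least 633. Hdac3, the target of the hairpin, stood at 774 and 819 normalized reads with the hairpin and 2012 and 1930.1 with SCR. Of 14 pre-T cell markers, all were present in every library, with a summed level of 156145 to 159480 with DAPT against 198315 to 201387, 102022 to 103592 with apicidin against 131036 to 132255 and 112612 to 113211 with shHdac3 against 140548 to 140909.9. Rag1 (20312 to 63296) and Notch1 (13561 to 34616) reached the highest values, so the sum does not describe each marker. These ranges run over experiments that were normalized separately and differ in depth, so they do not compare levels between experiments. Within the DAPT experiment, Rag1 and Notch1 were highest in DMSO replicate 2, while Tcf7, Bcl11b, Gata3 and Thy1 were highest in DAPT replicate 2. The B cell markers Ms4a1, Pax5 and Ebf1 had no read in any library. The summed level of 6 myeloid markers was 466 to 531 with DAPT against 240 to 246 with DMSO and 751 to 797 with apicidin against 509 to 534. Itgam made up most of it (235 to 793), while Cebpa had no read and Lyz2 did not exceed 9.19. The summed level of 6 fibroblast markers was 80.2 to 82.3 with DAPT against 31.3 to 36.9 and 42.7 to 49.2 with apicidin against 22.9 to 28.4. With shHdac3 it was 36.0 to 40.7, against 32.7 to 49.1 with SCR. Col1a1 and Col1a2 made up most of this sum, while Lum had no read and Pdgfra did not exceed 2.73. The part of these markers in the changes below was not tested. In bulk libraries, fewer cells of a type or cell cycle stage and less RNA per cell cannot be told apart. The labels do not say whether replicates are separate cultures; p-values here reflect library-to-library spread alone, possibly technical.

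Promoters of 4 members are shown because they hold an exact E2F word, and that of Rbl2 as a member without one. RefSeq (GRCm38.p6) gave windows of 300 bases, from 250 before to 50 after a start, for 7 of the 9 members; E2f2 and E2f3 have 2 windows each, of which 1 is printed. The words searched on both strands were TTTCCCGC, TTTCGCGC, TTTGCCGC and TTTGGCGC for E2F, present in 2.26% of all 32851 windows, TTTGAA for the cell cycle homology region (CHR), present in 17.9%, and GTGGGAA for the Notch cofactor RBPJ, present in 6.38%. Capitals mark the E2F and CHR words, which did not overlap each other. Sequences run 5′ to 3′ on the strand of the gene: E2f2 at chr4:136172024-136172323 (plus strand), E2f3 at chr13:29986014-29986313 (minus), E2f7 at chr10:110745189-110745488 (plus), Rbl1 at chr2:157204485-157204784 (minus) and Rbl2 at chr8:91069807-91070106 (plus).
E2f2: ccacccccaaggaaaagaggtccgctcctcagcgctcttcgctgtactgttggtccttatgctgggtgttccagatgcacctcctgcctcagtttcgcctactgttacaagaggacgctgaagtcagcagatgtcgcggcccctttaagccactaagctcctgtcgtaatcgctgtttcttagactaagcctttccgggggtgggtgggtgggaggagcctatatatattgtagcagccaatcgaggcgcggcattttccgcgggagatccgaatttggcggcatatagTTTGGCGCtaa
E2f3: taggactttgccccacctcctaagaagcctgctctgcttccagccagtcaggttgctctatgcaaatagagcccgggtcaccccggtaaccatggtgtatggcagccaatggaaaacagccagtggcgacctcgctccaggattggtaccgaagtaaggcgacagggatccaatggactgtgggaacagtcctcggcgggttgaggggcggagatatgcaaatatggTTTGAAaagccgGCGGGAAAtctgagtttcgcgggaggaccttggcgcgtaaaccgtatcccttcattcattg
E2f7: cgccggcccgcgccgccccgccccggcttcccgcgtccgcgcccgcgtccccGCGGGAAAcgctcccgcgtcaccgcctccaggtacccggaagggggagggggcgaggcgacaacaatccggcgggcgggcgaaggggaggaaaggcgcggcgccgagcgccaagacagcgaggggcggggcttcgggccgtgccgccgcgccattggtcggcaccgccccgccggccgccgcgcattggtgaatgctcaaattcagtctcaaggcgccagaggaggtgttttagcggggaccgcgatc
Rbl1: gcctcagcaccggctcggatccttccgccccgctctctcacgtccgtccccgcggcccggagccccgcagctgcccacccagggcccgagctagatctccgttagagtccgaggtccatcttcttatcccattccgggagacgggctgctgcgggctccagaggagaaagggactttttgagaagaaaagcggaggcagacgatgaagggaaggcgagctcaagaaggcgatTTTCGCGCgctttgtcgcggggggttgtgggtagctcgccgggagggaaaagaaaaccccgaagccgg
Rbl2: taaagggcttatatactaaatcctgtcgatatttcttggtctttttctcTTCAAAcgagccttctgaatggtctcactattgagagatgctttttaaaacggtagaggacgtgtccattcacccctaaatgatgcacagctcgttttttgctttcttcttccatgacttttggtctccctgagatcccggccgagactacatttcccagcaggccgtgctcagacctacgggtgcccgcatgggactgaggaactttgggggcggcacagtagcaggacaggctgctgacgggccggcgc

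Positions are those of the word's leftmost printed base, -1 being the base before the start. The E2F word lay at -11 in E2f3 and -198 in E2f7, both as TTTCCCGC on the opposite strand. It lay at -18 in Rbl1, as TTTCGCGC, and at base 40 from the RefSeq start in E2f2, as TTTGGCGC. No GENCODE M21 transcript of E2f2 held the end of that window, where the word lies. The CHR word lay at -23 in E2f3, at -31 in the E2f2 window that is not printed, and at -20 in E2f8, whose window held no E2F word. Rbl2 had the CHR word alone, at -201. Among the members' windows the RBPJ word occurred in that of E2f3, at -71. Other starts of the members were not searched, so E2f1, whose window held none of these words, may hold one elsewhere. These matches describe the letters in the windows and say nothing of binding in these cells.

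In the control libraries E2f4 was the most abundant member per kilobase of exon and E2f7 the least. The place of E2f4 depends on its exon length of 1.99 kb. By undivided normalized reads, Rbl1 (mean 4672) exceeded E2f4 (3599) in the DMSO controls of the DAPT experiment. Likewise E2f2 exceeded E2f4 in those of the apicidin experiment (2604 against 2147) and in SCR (2315 against 2079). Levels are compared between genes as normalized reads per kilobase of exon, with exon lengths from GENCODE M21 rather than the authors' annotation. In the DMSO controls of the DAPT experiment the level per kilobase of E2f4 was 1806 ± 15.7 (SD, n = 2). Below it came Rbl1 at 961 ± 24.1, E2f2 at 761 ± 8.29 and Rb1 at 752 ± 56.2, of which E2f2 and Rb1 did not differ beyond their spread. E2f8 (499 ± 16.3) stood above E2f1 (396 ± 39.4), Rbl2 (391 ± 8.34) and E2f3 (340.0 ± 15), and E2f1 and Rbl2 overlapped. E2f7 was at 42.3 ± 1.56. Per kilobase, with the same lengths used throughout, E2f4 ranked first and E2f7 last in 12 of 12 libraries, and E2f2 ranked above E2f8, E2f1 and E2f3 in all 12. Among the pocket protein genes Rbl2 was the lowest in 12 of 12.

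In the SCR libraries the order at the top was E2f4 (1043 ± 8.87), E2f2 (488 ± 17.3) and Rbl1 (472 ± 11.2), with E2f2 and Rbl1 within their spread. In the DMSO controls of the apicidin experiment it was E2f4 (1077 ± 29.6), E2f2 (549 ± 27.6) and Rbl1 (494 ± 16.1). Within the 6 E2F genes, E2f4 supplied 46.5% and 47.5% of the summed level per kilobase in the DMSO controls of the DAPT experiment, 37.0% and 35.4% with DAPT, 49.9% and 50.3% with apicidin against 45.8% in both controls, and 40.9% and 40.5% with shHdac3 against 44.9% and 44.4%. The share of E2f2 went from 19.6% and 20.0% to 26.4% and 27.8% with DAPT. Within the pocket protein genes Rbl1 supplied 34.4% and 35.2% with apicidin and at least 49.5% with shHdac3, the lowest and highest shares of any group.

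**Figure D1:**
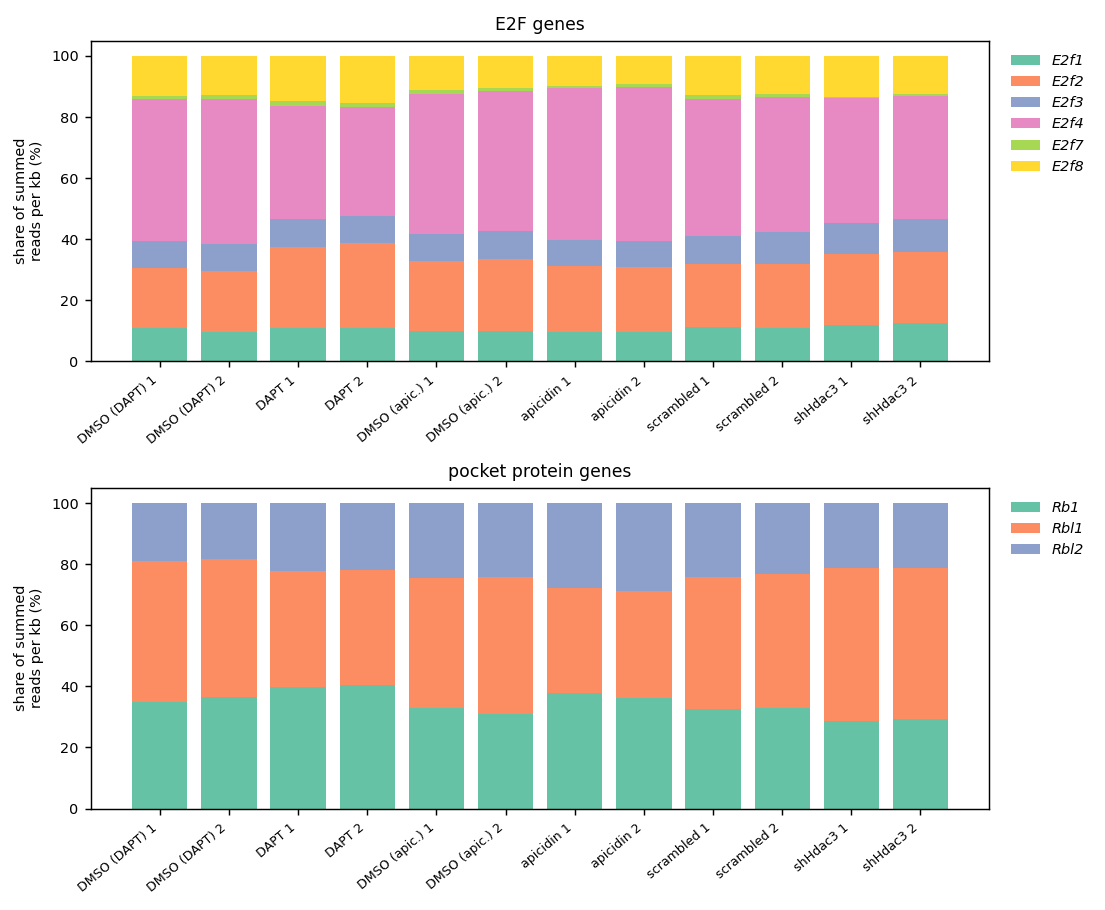
Share of the summed normalized reads per kilobase, in percent, that each gene supplied in each of the 12 libraries, for the 6 E2F genes (top) and the 3 pocket protein genes (bottom). E2f4 is the largest E2F block in every library and shrinks to 35.4% to 37.0% with DAPT.

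After DAPT, E2f2, E2f7, Rb1 and Rbl2 rose and E2f4 fell, with changes of 1.28-fold to 1.37-fold. In all, 5 members rose and 1 fell past an adjusted p of 0.05 (limma, Benjamini-Hochberg over all genes), against 43.2% of all 12840 genes tested in either direction (20.1% higher, 23.1% lower). Of all calls 46.6% were higher, or 56.5% with upper-quartile factors. In 7 members the groups did not overlap, against 69.9% of all genes tested. The median log2 fold change of the members was 0.12, and that of all genes tested was 0.001. The activator E2f2 stood at 4513 and 4813 with DAPT and 3633 and 3577 with DMSO, both treated libraries being above both controls (log2 fold change 0.37 ± 0.041, adjusted p = 1.3e-07). The repressor E2f7 stood at 448 and 451 against 325 and 343, again without overlap (log2 fold change 0.43 ± 0.083, adjusted p = 2.2e-04). For E2f4 the values were 2659 and 2581 with DAPT and 3622 and 3577 with DMSO, so both treated libraries lay below both controls (log2 fold change -0.46 ± 0.041, adjusted p = 4.7e-09).

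Among the pocket protein genes, Rb1 stood at 4459 and 4487 with DAPT and 3317 and 3687 with DMSO (log2 fold change 0.35 ± 0.045, adjusted p = 9.7e-07). Rbl2 stood at 2640.4 and 2562 against 1898 and 1956 (log2 fold change 0.43 ± 0.044, adjusted p = 4.2e-08). Both rose in each treated library relative to each control. Rbl1 did not pass, with 4439 and 4360.5 against 4589 and 4755 (log2 fold change -0.086 ± 0.039, adjusted p = 0.078), although its groups did not overlap; it passed without DMSO replicate 1 (adjusted p = 0.0152). E2f1 (1239 and 1273 against 1338 and 1162) and E2f3 (1811 and 1748 against 1879.6 and 1766) overlapped between the groups, with adjusted p of 0.91 and 0.61. E2f8 was slightly higher at 2048 and 2169 against 1980.1 and 1890.5 (log2 fold change 0.12 ± 0.047, adjusted p = 0.0392). That call was lost without DAPT replicate 2 (adjusted p = 0.38) or DMSO replicate 2 (0.14), with no filter (0.0614) and in a fit of all 12 libraries (0.12). Of the exonic bases of Rbl2, 16.8% overlap a gene on the other strand, as do 15.7% of those of E2f8 and 2.26% of those of Rb1. The strand setting of the counts is not given in the sources used here, so such reads cannot be assigned to a gene.

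**Figure D2:**
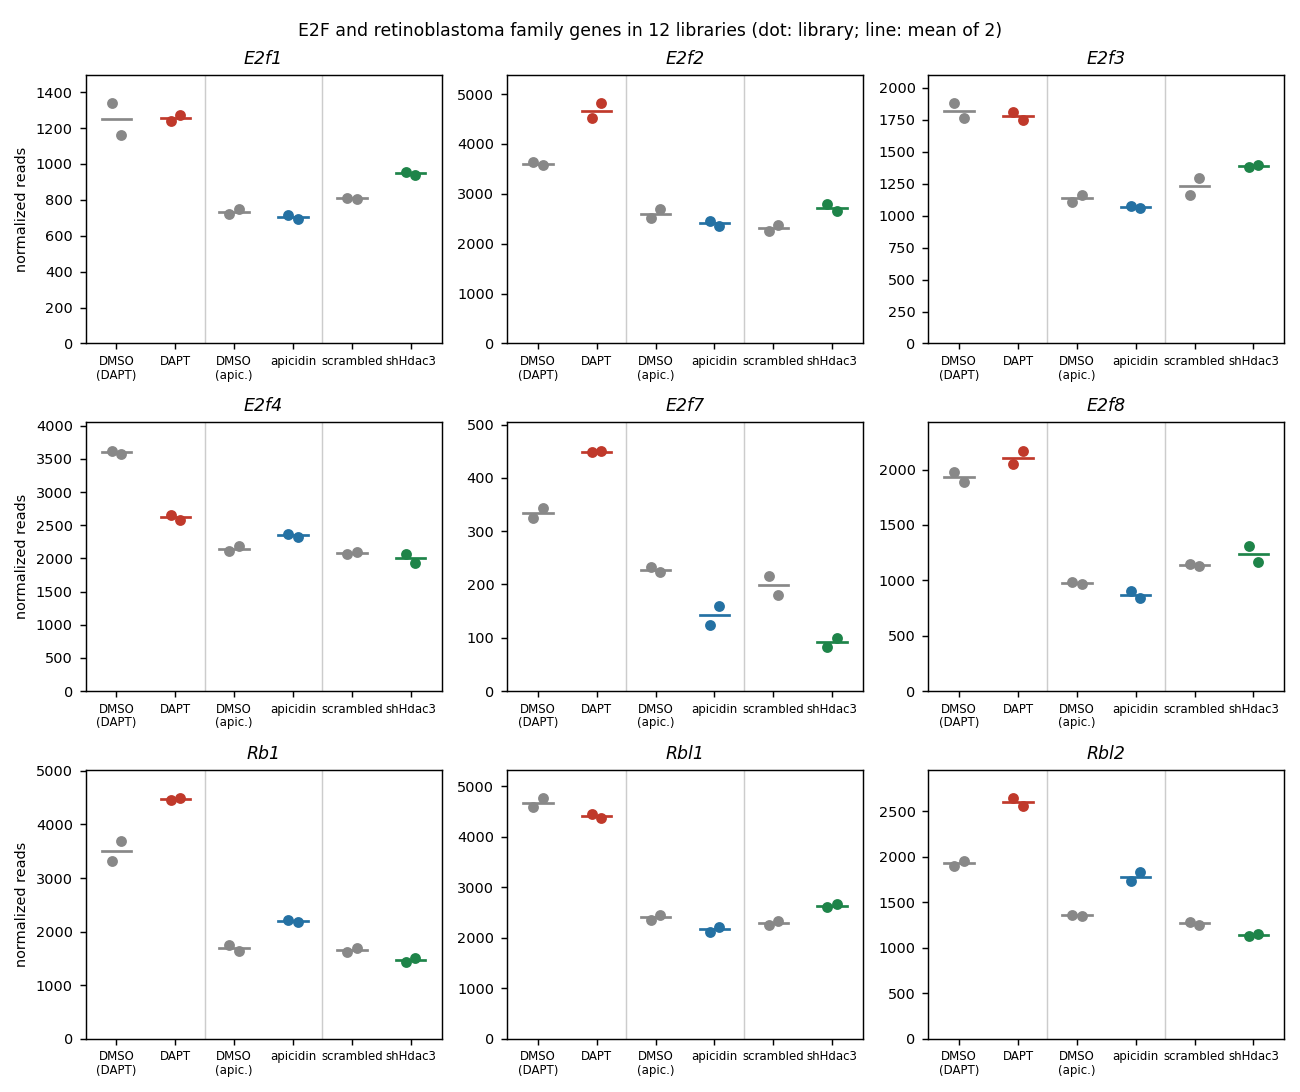
Normalized reads of the 9 genes in each library (dots) with the mean of each group of 2 (lines), from 0. The experiments, divided by grey lines, were normalized separately, so levels compare only within an experiment; E2f7 lies above its controls with DAPT and below them with apicidin and shHdac3.

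With apicidin, Rb1 and Rbl2 rose and E2f7 fell, and no other member moved further than E2f8, which fell by 0.17 on the log2 scale. Of the 9 members, 3 were higher and 3 lower, against 38.1% of all 12463 genes tested (18.2% higher, 19.9% lower). The members' median was -0.092, against 0.002 for all genes tested. Rb1 stood at 2217 and 2175 with apicidin and 1746 and 1638 with DMSO (log2 fold change 0.38 ± 0.047, adjusted p = 7.1e-06). Rbl2 stood at 1733 and 1829.9 against 1363 and 1351 (log2 fold change 0.39 ± 0.048, adjusted p = 6.1e-06). The treated libraries of both genes lay above both controls. E2f7 went the other way, at 125 and 159 against 233 and 222 (log2 fold change -0.69 ± 0.13, adjusted p = 4.8e-04).

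Small changes made up the rest of the apicidin response. E2f4 was at 2371 and 2320.1 against 2105 and 2189 (log2 fold change 0.13 ± 0.044, adjusted p = 0.0303), and did not pass when DMSO replicate 1 (0.14), apicidin replicate 1 (0.19) or apicidin replicate 2 (0.0762) was left out (adjusted p in parentheses). E2f8 was at 902 and 837 against 987 and 966 (log2 fold change -0.17 ± 0.058, adjusted p = 0.0282), lost without apicidin replicate 2 (0.26) or DMSO replicate 1 (0.0756). Rbl1, an E2F target that encodes p107, was at 2112 and 2211 against 2345 and 2456 (log2 fold change -0.15 ± 0.046, adjusted p = 0.0142), lost without apicidin replicate 1 (0.16) or DMSO replicate 2 (0.0731). The 3 activator genes lay below both controls without passing: E2f1 at 714 and 694 against 719 and 751 (adjusted p = 0.46), E2f2 at 2457 and 2358 against 2511 and 2696 (0.0677) and E2f3 at 1074 and 1059 against 1110.1 and 1164 (0.18). E2f2 passed without DMSO replicate 1 (log2 fold change -0.16, adjusted p = 0.00791). All 9 members were without overlap between groups here, but so were 69% of all genes tested.

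After Hdac3 knockdown E2f7 fell by 53.8%, while E2f1, E2f2, E2f3 and Rbl1 rose. Of the 9 members, 4 were higher and 3 lower, against 41.9% of all 12482 genes tested (22.5% higher, 19.4% lower). Of all calls in that comparison 53.8% were higher, or 43.5% with upper-quartile factors. The groups of all 9 were without overlap, against 69.2% of all genes tested. The members' median was 0.11, against 0.00018 for all genes. E2f7 stood at 82.3 and 100.2 with shHdac3 and 216 and 181 with SCR (log2 fold change -1.12 ± 0.15, adjusted p = 2.1e-08), a 2.17-fold fall and the largest change of any member in the 3 experiments. These values rest on 80 and 96 whole reads against 212 and 199.

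The activator genes lay above their controls in both shHdac3 libraries. E2f2 was at 2794 and 2647 against 2257 and 2373 (log2 fold change 0.23 ± 0.048, adjusted p = 8.2e-05). E2f1 was at 954 and 940.0 against 812 and 807 (log2 fold change 0.23 ± 0.061, adjusted p = 0.00211), and in the authors' deposited table its adjusted p was 0.075. E2f3 was at 1378 and 1394 against 1166 and 1293 (log2 fold change 0.17 ± 0.056, adjusted p = 0.0092), a call lost without SCR replicate 1 (adjusted p = 0.26). Rbl1 moved with them, at 2598 and 2655 against 2256 and 2333 (log2 fold change 0.20 ± 0.047, adjusted p = 6.6e-04).

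The other pocket protein genes were lower after knockdown, with smaller log2 values than their rises with the inhibitors. Rb1 was at 1428 and 1503 against 1619 and 1683 (log2 fold change -0.17 ± 0.052, adjusted p = 0.00607), lost without shHdac3 replicate 1 (adjusted p = 0.0746) or SCR replicate 2 (0.0707). Rbl2 was at 1126 and 1151 against 1281 and 1253 (log2 fold change -0.15 ± 0.055, adjusted p = 0.02), lost without shHdac3 replicate 1 (0.0889) or SCR replicate 1 (0.11). E2f8 was at 1307 and 1164 against 1147 and 1131 (adjusted p = 0.11) and passed without shHdac3 replicate 2 (0.0108). E2f4 was at 2066 and 1935 against 2067 and 2092 and did not pass (adjusted p = 0.38).

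**Figure D3:**
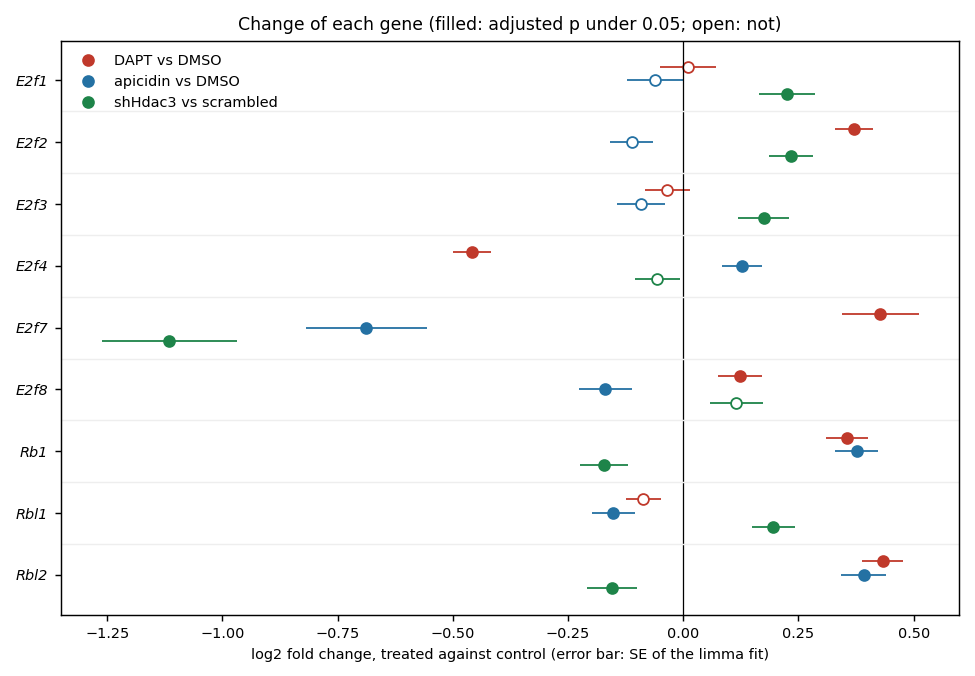
Log2 fold change of each gene, treated against its own controls, with the SE of the limma fit as error bars; filled points passed an adjusted p of 0.05 and open points did not. Rb1 and Rbl2 sit near 0.4 with DAPT and apicidin and below 0 with shHdac3, and E2f7 has the widest spread, from -1.12 to 0.43.

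Differences between responses were tested on all 12 libraries, as the difference of 2 log2 fold changes. No 2 experiments share control libraries. Contrasts with shHdac3 also set 24 h of an inhibitor against 96 h after puromycin with a hairpin. In them, an effect of the agent cannot be told apart from one of time or delivery. Apicidin and Hdac3 knockdown differed in 8 of 9 members, 3 with a higher and 5 with a lower change in apicidin, against 33.4% of all 13042 genes tested (15.1% higher, 18.3% lower). The difference was largest for Rbl2 (0.55 ± 0.065, adjusted p = 8.6e-07) and Rb1 (0.55 ± 0.072, adjusted p = 3e-06), which rose with apicidin and were lower after knockdown. It had the opposite sign for Rbl1 (-0.34 ± 0.060, adjusted p = 1.2e-04), E2f2 (-0.34 ± 0.066, adjusted p = 3.5e-04) and E2f1 (-0.28 ± 0.085, adjusted p = 0.0125). E2f3 (-0.26 ± 0.075, adjusted p = 0.00932), E2f4 (0.19 ± 0.061, adjusted p = 0.02) and E2f8 (-0.28 ± 0.080, adjusted p = 0.00936) also passed. Each of these 3 was lost without at least 1 library: E2f3 without SCR replicate 1 (adjusted p = 0.0769), E2f8 without apicidin replicate 2 (0.0566) or shHdac3 replicate 1 (0.0788), and E2f4 without apicidin replicate 1 (0.0703), DMSO replicate 1 (0.0739), shHdac3 replicate 2 (0.11) or SCR replicate 2 (0.0575). E2f7, which fell in both, did not pass (0.43 ± 0.18, adjusted p = 0.0662); it passed without apicidin replicate 1 (0.0167), shHdac3 replicate 2 (0.0227) or SCR replicate 2 (0.0344).

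DAPT and apicidin differed in 4 members, 3 higher and 1 lower in DAPT, against 34.8% of all genes (16% higher, 18.8% lower). These were E2f7 (1.10 ± 0.18, adjusted p = 3.7e-05), E2f4 (-0.60 ± 0.061, adjusted p = 6.4e-08), E2f2 (0.47 ± 0.066, adjusted p = 6.3e-06) and E2f8 (0.28 ± 0.080, adjusted p = 0.00828). The E2f8 difference was lost without DAPT replicate 2 (adjusted p = 0.056) or apicidin replicate 2 (0.055). For Rb1 (-0.033 ± 0.072, adjusted p = 0.77) and Rbl2 (0.029 ± 0.065, adjusted p = 0.78) no difference between the responses was detected.

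DAPT and Hdac3 knockdown differed in 7 members, 3 higher and 4 lower in DAPT, against 43.8% of all genes (20% higher, 23.8% lower). E2f7 differed most (1.54 ± 0.18, adjusted p = 2.2e-07). Rbl2 (0.58 ± 0.065, adjusted p = 1.3e-07) and Rb1 (0.52 ± 0.072, adjusted p = 2.7e-06) were higher in DAPT, and E2f4 (-0.41 ± 0.061, adjusted p = 7.4e-06) and Rbl1 (-0.29 ± 0.060, adjusted p = 3.8e-04) lower. E2f3 (-0.22 ± 0.075, adjusted p = 0.0225) was lost without DAPT replicate 2, DMSO replicate 1, shHdac3 replicate 2 or SCR replicate 1 (adjusted p of 0.0552 to 0.16). E2f1 (-0.22 ± 0.085, adjusted p = 0.0369) was lost without each of the 8 DAPT and hairpin experiment libraries in turn other than DMSO replicate 2 (adjusted p of 0.0562 to 0.25). E2f2, higher with both, did not pass (0.13 ± 0.066, adjusted p = 0.12).

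**Figure D4:**
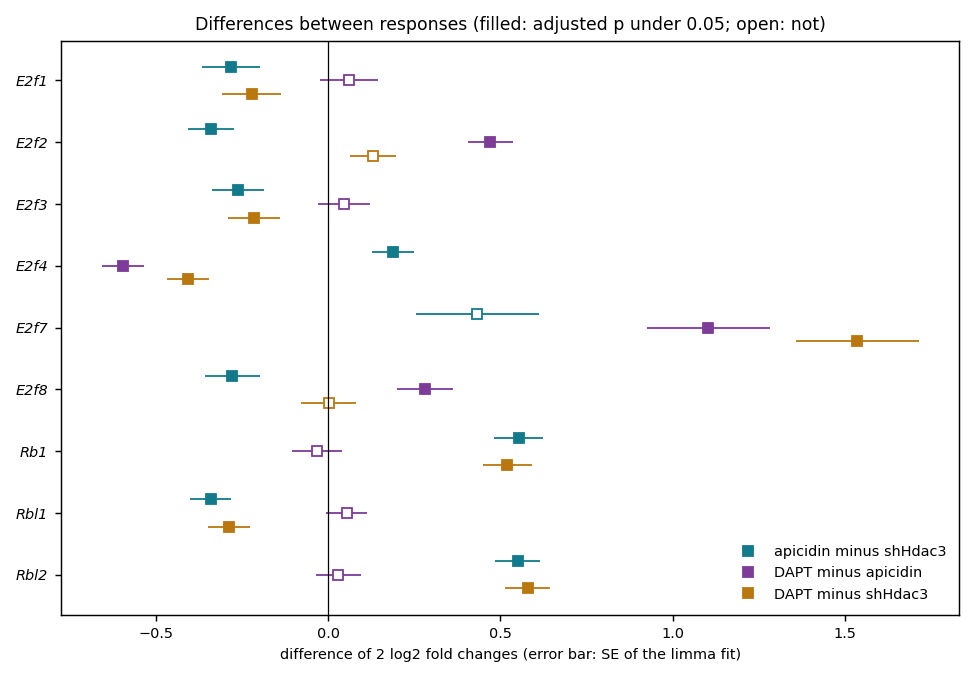
Difference of 2 log2 fold changes for each gene, with the SE of the limma fit over 12 libraries as error bars; filled squares passed an adjusted p of 0.05 and open squares did not. Rb1 and Rbl2 lie near 0 for DAPT minus apicidin and above 0.5 in both contrasts with shHdac3.

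The genes whose 3 log2 fold changes were nearest to those of a member were ranked by Euclidean distance among 10461 genes with a mean of 50 or more in each table. For E2f7 they were Creld1 (distance 0.10), Papln (0.14) and Hoxa13 (0.15), and 7 genes lay within a distance of 0.2. For Rb1 they were Itm2c (0.012), Efna5 (0.053) and Hist2h2be (0.057), and for Rbl2 they were Myoz3 (0.042), Ston2 (0.045) and Tlr6 (0.047). Several of these rest on values that 1 library moved: over left-out libraries the log2 fold change of Efna5 with apicidin ran from 0.068 to 0.67, and with shHdac3 that of Hoxa13 from -1.55 to -0.66, of Myoz3 from -0.23 to -0.091, of Ston2 from -0.27 to -0.048 and of Tlr6 from -0.39 to 0.080. Rb1 and Rbl2 were at a distance of 0.081 from each other. The small changes of E2f1, E2f3, E2f8 and Rbl1 had 784 to 1436 genes within 0.2, and E2f2 and E2f4 had 85 and 99; the nearest genes of these 6 are not printed.

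**Figure D5:**
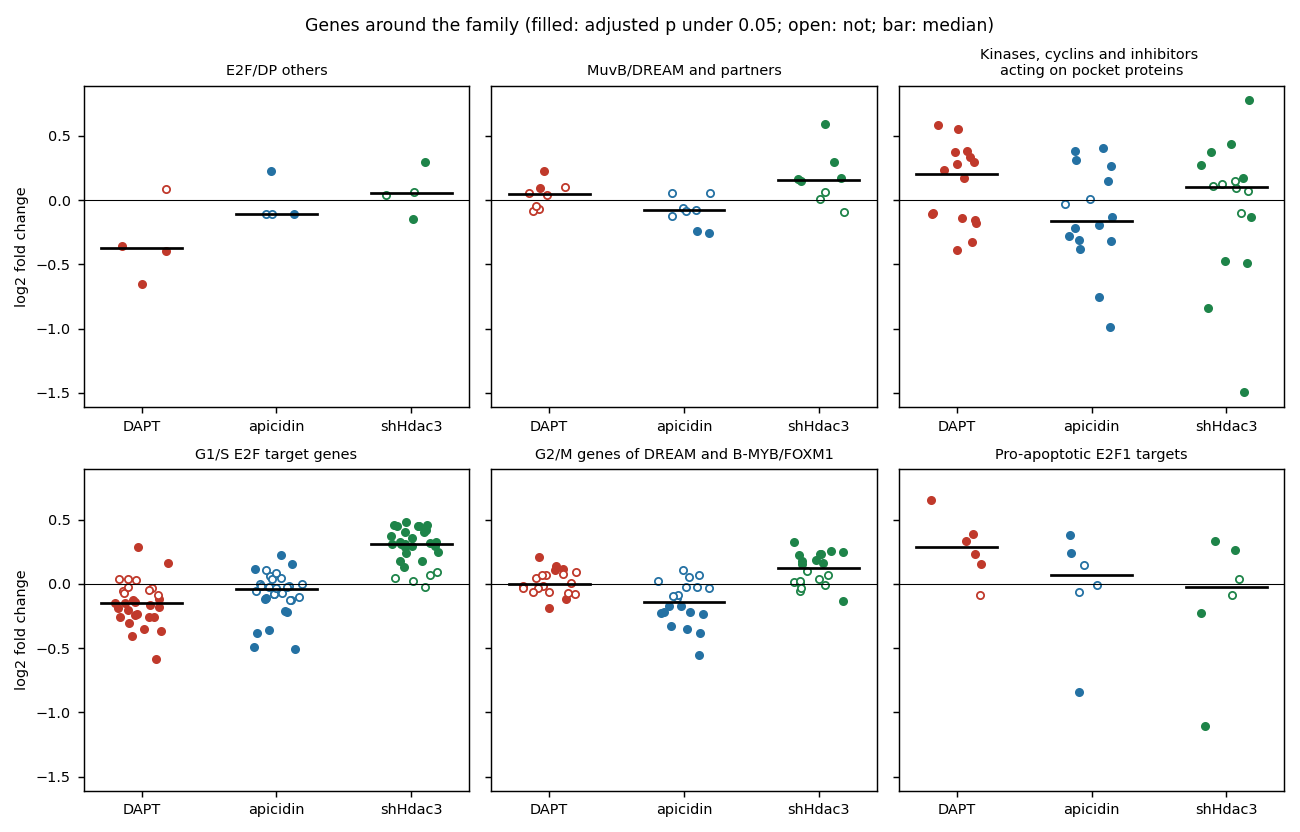
Log2 fold changes of the genes in 6 lists around the family, by treatment; filled points passed an adjusted p of 0.05, open points did not, and bars are medians. The G1/S target list has its median at -0.15 with DAPT, -0.043 with apicidin and 0.31 with shHdac3.

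The dimer partners and remaining E2F genes were mostly lower with DAPT. Of the 4 genes E2f5, E2f6, Tfdp1 and Tfdp2, 3 were lower and 0 higher with DAPT, against 23.1% and 20.1% of all genes: E2f5 at -0.65 ± 0.14, the pocket-independent repressor E2f6 at -0.40 ± 0.077 and the DP1 gene Tfdp1 at -0.35 ± 0.036. Tfdp1 stood at 6521 and 6499.5 with DAPT against 8295 and 8342, and rose after Hdac3 knockdown, at 5338 and 5356 against 4263 and 4428 (0.30 ± 0.044). Tfdp2, for DP2, rose with apicidin (0.23 ± 0.046). With apicidin 1 of the 4 was higher and 1 lower (18.2% and 19.9% of all genes), and with shHdac3 likewise (22.5% and 19.4%), shares near those of all genes. The lower call with apicidin, Tfdp1 (adjusted p = 0.046), was lost without any 1 of the 4 libraries of that experiment, with no filter (0.0627), with upper-quartile factors (0.0583) and with the replicate number as a block (0.0528). The lower call with shHdac3, Tfdp2 (0.02), was lost without shHdac3 replicate 2 (0.1), without SCR replicate 2 (0.26) and with no filter (0.0584).

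Most listed G1/S target genes of E2F, many of which encode replication or nucleotide synthesis proteins, fell with DAPT and rose after Hdac3 knockdown. With DAPT 19 of 30 were lower and 2 higher (median -0.15, against 0.001 for all genes, of which 23.1% were lower and 20.1% higher). The falls included Ung (-0.59 ± 0.047), a uracil glycosylase gene, and the origin recognition gene Orc1 (-0.37 ± 0.060). With shHdac3 25 of 30 were higher and 0 lower (median 0.31, with 22.5% of all genes higher and 19.4% lower). The rises included the licensing factor gene Cdc6 (0.46 ± 0.045), the helicase subunit gene Mcm3 (0.46 ± 0.044) and Uhrf1 (0.45 ± 0.052). With apicidin 9 were lower and 3 higher (median -0.043, with 19.9% of all genes lower and 18.2% higher). The higher count was smaller without apicidin replicate 1. Dscc1 (-0.50 ± 0.10) and the thymidine kinase gene Tk1 (-0.49 ± 0.051) were among the falls with apicidin. Genes with symbols beginning Hist took 17.5% and 16.8% of reads with DAPT against 15.9% and 15.4%, 17.0% and 17.6% with apicidin against 17.9% and 20.3%, and 20.0% and 19.5% with shHdac3 against 20.0% and 21.4%; their part in these counts was not tested.

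Of 20 G2/M genes bound by the DREAM complex of pocket proteins or by B-MYB and FOXM1, 10 were lower and 0 higher with apicidin (median -0.14; 19.9% of all genes lower, 18.2% higher), led by the ubiquitin-conjugating enzyme gene Ube2c (-0.55 ± 0.045) and the anaphase activator gene Cdc20 (-0.39 ± 0.041). After Hdac3 knockdown 10 were higher and 1 lower, or 0 lower without shHdac3 replicate 2 or SCR replicate 1 (median 0.13; 22.5% of all genes higher, 19.4% lower), led by the kinesin genes Kif20a (0.33 ± 0.046) and Cenpe (0.26 ± 0.045). With DAPT 4 were higher and 2 lower (median -0.004), the higher share being close to that of all genes (20.1%; 23.1% lower), or 7 and 1 with upper-quartile factors; without 1 library the higher count ran from 1 (DAPT replicate 1) to 8 (DMSO replicate 2). Among the 8 genes of the MuvB core and its partners, Mybl2, which encodes B-MYB, rose with shHdac3 (0.59 ± 0.046) and Foxm1 fell with apicidin (-0.24 ± 0.048). That list had 5 higher and 0 lower with shHdac3, or 2 and 0 without SCR replicate 2, against 22.5% and 19.4% of all genes. It had 0 higher and 2 lower with apicidin (18.2% and 19.9% of all genes) and 2 higher and 0 lower with DAPT (20.1% and 23.1%), so the 2 calls in each are close to the share of all genes. Both DAPT calls were lost without DAPT replicate 1, DAPT replicate 2 or DMSO replicate 1.

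The cyclins, kinases and inhibitors that act on the pocket proteins went both ways in every experiment. Of 16 tested, 9 were higher and 7 lower with DAPT (3 lower without DAPT replicate 1 or DAPT replicate 2), against 20.1% and 23.1% of all genes. With apicidin 5 were higher and 9 lower, against 18.2% and 19.9%, and with shHdac3 5 and 5, against 22.5% and 19.4%. Cdkn2a and Cdkn2b were under the filter. With DAPT the inhibitor genes Cdkn1c (0.58 ± 0.085) and Cdkn2d (0.38 ± 0.040) and the cyclin gene Ccnd1 (0.56 ± 0.036) rose and the kinase gene Cdk6 fell (-0.39 ± 0.053). With apicidin Cdkn1c (-0.99 ± 0.19), the p53 target and inhibitor gene Cdkn1a (-0.76 ± 0.078) and Cdkn2c (-0.38 ± 0.056) fell, and the inhibitor gene Cdkn1b rose (0.41 ± 0.047). Cdkn1c was low in that experiment, with a mean of 69.1 normalized reads. After knockdown Cdkn1a (-1.50 ± 0.079), the cyclin gene Ccnd2 (-0.84 ± 0.065) and Cdkn1b (-0.49 ± 0.056) fell, and Cdk6 rose (0.78 ± 0.052).

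Of 6 tested apoptosis genes known as E2F1 targets, 5 rose and 0 fell with DAPT (20.1% of all genes higher, 23.1% lower), including Ppp1r13b (0.65 ± 0.063) and the BH3-only gene Bbc3 (0.39 ± 0.090). Trp73 and Pmaip1, also listed, were under the filter. With apicidin 2 rose and 1 fell (18.2% and 19.9% of all genes). After Hdac3 knockdown 2 rose, including the apoptosome gene Apaf1 (0.33 ± 0.051), and 2 were lower, led by Bbc3 (-1.10 ± 0.13), or 1 without shHdac3 replicate 2 or SCR replicate 2 (22.5% of all genes higher, 19.4% lower).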

How the data were processed

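Sample titles gave the groups and replicate numbers. The submitters' processing notes list mm9 as the build, with FastQC, TopHat, Bowtie2 and DESeq2 but no versions. Which counter, gene annotation and strand setting made the tables is not stated in the labels or headers. The deposited tables, 1 per experiment, hold per the file headers a normalized signal per gene and library, with the authors' log2 fold change, its SE, a test score and p-values. The values show that each deposited signal is a whole read number scaled by a constant of its library: 100% of values divide into a whole number of reads, within a tolerance of 1e-06 relative to the value, and whole reads were recovered from them. Counting error is 11.2% for the lowest E2f7 value and under 4% for every other member.

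The main test was limma (version 3.58.1, under R 4.3.3) on log2(value + 1), using its trend option and keeping genes that reached 10 in 2 or more of an experiment's 4 libraries, without covariates, two-sided, with Benjamini-Hochberg adjustment over all genes tested at 0.05. Fold changes are on that scale, which understates low genes. Differences between responses used limma on all 12 libraries in 6 groups with size factors recomputed together. All adjusted p without another name are from limma. Alternatives were other pseudocounts, filters and factors, edgeR 4.0.16 and DESeq2 1.42.0 on recovered reads, the authors' table, a replicate block and leaving out each library. Scripts were tested on simulated counts. The 9 members and the gene lists were chosen with earlier results of these data known. All members are named, with Hdac3, up to 4 passing genes per list with the largest change, and the 3 nearest genes; not every gene the rule allows is reported here. Same-numbered libraries within an experiment were not treated as pairs.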

Additional observations from a re-analysis of the deposited data

How the results depend on the processing

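DESeq2 on recovered reads and the authors' deposited table, by adjusted p under 0.05, called 3 members each with apicidin (E2f7, Rb1 and Rbl2, against 6 by limma) and 3 after Hdac3 knockdown (E2f2, E2f7 and Rbl1, against 7), and 5 with DAPT (E2f2, E2f4, E2f7, Rb1 and Rbl2, against 6). Those 11 calls, with their direction, also held in limma under every pseudocount, filter, factor and left-out library tried and in edgeR; the cause of the lower counts was not tested. Over all genes DESeq2 called 1645 higher and 2168 lower of 16816 with DAPT, against 2584 and 2962 of 12840 by limma. With apicidin DESeq2 called 1136 and 1329 of 16378, against 2265 and 2481 of 12463. After knockdown DESeq2 called 1694 and 1267 of 16419, against 2811 and 2417 of 12482. The DESeq2 totals hold every gene with a read in that experiment, and the limma totals only genes past the filter. Shares of these totals therefore do not compare. For the replicate block, same-numbered libraries share only a number (correlation of their deviations from the group means 0.011 to 0.039). It called 6, 6 and 7 members with DAPT, apicidin and shHdac3, and 8, 4 and 7 in the differences. These counts were as without the block, and the call of no member changed. Over all genes the block fit called 2826 higher and 3152 lower with DAPT, 2294 and 2517 with apicidin and 2861 and 2466 with shHdac3. Of the listed genes named, the block ended the call of Tfdp1 with apicidin (adjusted p = 0.0528). Leaving out 1 library of the experiments compared gave 5 to 7, 4 to 5 and 5 to 8 members, and 7 to 8, 3 to 4 and 5 to 7 in the differences. Signs turned for values that did not pass: E2f3 with DAPT was 0.0033 with upper-quartile factors and -0.079 to 0.010 over left-out libraries, E2f1 with DAPT -0.091 to 0.11, and Tlr6 with shHdac3 -0.39 to 0.080. The same held for DAPT minus apicidin in E2f1 (-0.036 to 0.16), Rb1 (-0.11 to 0.049) and Rbl2 (-0.010 to 0.069), and for DAPT minus shHdac3 in E2f8 (-0.082 to 0.085). With TMM factors, E2f1 in DAPT minus shHdac3 did not pass (adjusted p = 0.0607). With a single library left in an arm, it was assumed to vary like the other group. Alternatives for the lists and their genes were added after the data were seen.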
